A study of Homo sapiens with 4 samples.

Results

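The EGF receptor family of COLO205 cells was described through 10 genes, taken by symbol from the 19970 genes of the deposited table. They comprised 3 receptor genes (EGFR, ERBB2 and ERBB3), 6 ligand genes (AREG, EREG, HBEGF, TGFA, BTC and EPGN) and 1 inhibitor gene (ERRFI1), and each symbol matched 1 row. COLO205 is an established human colorectal cancer cell line. The cells of all 4 samples were kept for 24 h in either DMSO, the solvent, or nonylphenol (NP), an alkylphenol that can bind estrogen receptors. There were 2 control samples (DMSO) and 2 NP samples at 1 µM, and no other agent or genetic change separated the groups. The study asked which transcripts changed in these cells after NP exposure. Separate cultures for the 2 samples of each group are not stated, and a p-value here reflects the spread of these libraries, possibly only a technical one.

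The receptors of this family are tyrosine kinases that sit in the plasma membrane and pair when a ligand binds. EGFR binds ligands of the EGF type, ERBB2 has no known ligand of its own and acts as a partner, and ERBB3 binds neuregulins and signals mainly through its partners. The ligands are made as membrane-anchored precursors, which proteases of the ADAM family cut to release the active growth factor. ERRFI1, also called MIG6, is a cytoplasmic protein that binds active EGFR kinase domains and blocks them. In the colon, these signals drive the growth of epithelial cells through the RAS-ERK and PI3K pathways, and the receptor EGFR is a drug target in colorectal cancer, where AREG and EREG are studied as markers of the response to antibodies against it.

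In NP-treated cells, transcripts of the ligands HBEGF and EREG and of the receptor ERBB2 were lower than in control cells, and those of no family gene were higher. HBEGF fell by 14.3%, ERBB2 fell by 10.6% and EREG fell by 9.52% (2 samples per group, adjusted p = 8.4e-06, 0.0036 and 0.00057 by quasi-likelihood in edgeR). AREG, the most abundant transcript of the family, was 5.72% lower and narrowly missed the threshold of 0.05 (adjusted p = 0.054 from the same test). EGFR, ERBB3, TGFA, BTC and ERRFI1 did not pass, and EPGN had too few counts to be tested. Of the 9 family genes tested, 3 were thus called lower, against 1.7% of all 12616 genes tested that were called lower, and 0 were called higher, against 2.35%. The family was chosen with earlier results of these data known, and the shares cover genes of all levels tested. The contrast is therefore a description and not a test of the family. Bulk RNA cannot tell fewer cells with a transcript from less RNA per cell.

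Depth ranged from 13401691 to 16998129 counts, and 14712 to 14893 genes had at least 1 count. Of 12 marker genes of colon epithelium, 11 had an FPKM (a level scaled by gene length and library size) of at least 1 in every sample, and their summed FPKM lay between 2140.1 and 2155 in all samples. The exception was KRT20, a keratin of differentiated colon cells, with 0.768 to 1.01 FPKM, and the intestinal transcription factors CDX1 and CDX2 were low, at 1.0 to 1.91 FPKM. None of the markers of fibroblasts (7 genes), leukocytes (5) or endothelium (4) reached 1 FPKM in every sample. Some, among them COL1A2, COL3A1, PTPRC and CD3E, had 0 counts throughout. Others had low counts in every sample: 41 to 56 for COL1A1, 27 to 45 for PDGFRB and 4 to 10 for LUM. CD14, a leukocyte marker, had 12 to 33 counts and reached 1.18 FPKM in NP sample 1. Samples of 1 group were further apart than counting noise, for which a mean chi-square of 1 would be found: it was 1.95 over the genes of the control pair and 1.88 over those of the NP pair.

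The stretches upstream of the transcription start are shown for HBEGF and EREG, the ligand genes that fell, and for AREG, their most abundant relative, because these ligand genes were the members with the highest levels. Each is the 250 bases before a RefSeq transcript start (GRCh38.p14, read on the strand of the gene), at chr5:140346604-140346853 (minus strand) for HBEGF, chr4:74364895-74365144 (plus strand) for EREG and chr4:74444886-74445135 (plus strand) for AREG. Capitals mark matches on either strand to 5 motifs, namely the AP-1 site TGANTCA, the cyclic AMP response element TGACGTCA, the GC box GGGCGG, the ETS site CCGGAAG and the TATA box TATAAA.
HBEGF: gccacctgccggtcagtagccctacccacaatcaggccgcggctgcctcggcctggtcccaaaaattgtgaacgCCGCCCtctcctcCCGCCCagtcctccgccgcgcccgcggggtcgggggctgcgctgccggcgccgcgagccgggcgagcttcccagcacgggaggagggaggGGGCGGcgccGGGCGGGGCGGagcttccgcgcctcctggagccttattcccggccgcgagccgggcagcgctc
EREG: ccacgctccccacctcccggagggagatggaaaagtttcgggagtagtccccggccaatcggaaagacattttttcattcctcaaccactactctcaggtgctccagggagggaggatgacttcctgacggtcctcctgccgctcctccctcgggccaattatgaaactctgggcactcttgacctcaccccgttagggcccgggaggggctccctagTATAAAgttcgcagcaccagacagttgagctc
AREG: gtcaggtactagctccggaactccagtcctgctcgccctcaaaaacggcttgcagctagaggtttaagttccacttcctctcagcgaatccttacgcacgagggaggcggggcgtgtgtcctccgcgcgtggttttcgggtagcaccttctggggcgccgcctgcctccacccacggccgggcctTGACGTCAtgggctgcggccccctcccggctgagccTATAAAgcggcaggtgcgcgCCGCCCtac
HBEGF held 5 matches to the GC box, of which a pair overlapped by 1 base, and none to the other motifs, and 76.4% of its bases were G or C. EREG held 1 match, to the TATA box, whose first base lay at -32 from the start. AREG held 1 match to the cyclic AMP response element with its first base at -65, 1 to the TATA box at -29 and 1 to the GC box at -9. Over the same 250 bases of 34943 RefSeq starts, 42.5% held a GC box, 10.8% a TATA box, 8.48% the ETS site, 6.59% the AP-1 site and 1.63% the cyclic AMP response element. RefSeq upstream stretches were matched for 9 of the 10 genes, all but ERBB3. A match of letters is a description only.

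The levels of the family spanned a wide range. AREG, which encodes amphiregulin, had 638 and 657 FPKM in control samples 1 and 2, and 608 and 607 FPKM in NP samples 1 and 2. By its mean control level it ranked 32 among the 19970 genes of the table. EREG (epiregulin) followed with a control mean of 129 ± 4.87 FPKM (SD, n = 2, here and for the next levels), then HBEGF (heparin-binding EGF-like growth factor) with 95.2 ± 0.092 and ERRFI1 with 80.8 ± 2.71 FPKM. The receptors were lower than these ligands, with 37.1 ± 1.23 FPKM for ERBB3, 21.6 ± 0.17 for ERBB2 and 8.08 ± 0.19 for EGFR. Among the ligands, TGFA (transforming growth factor alpha) stood between ERBB2 and EGFR at 12.7 ± 0.35 FPKM, and BTC (betacellulin) came after EGFR at 6.46 ± 0.090 FPKM. EPGN (epigen) was at 0.029 ± 0.014 FPKM, which rests on 1 and 2 counts. In none of the 9 pairs of neighbours in this order did the values overlap between genes, in the control samples or in the NP samples. The closest neighbours were HBEGF and ERRFI1, whose control means differed 1.18-fold, and EGFR and BTC, which differed 1.25-fold.

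**Figure D1:**
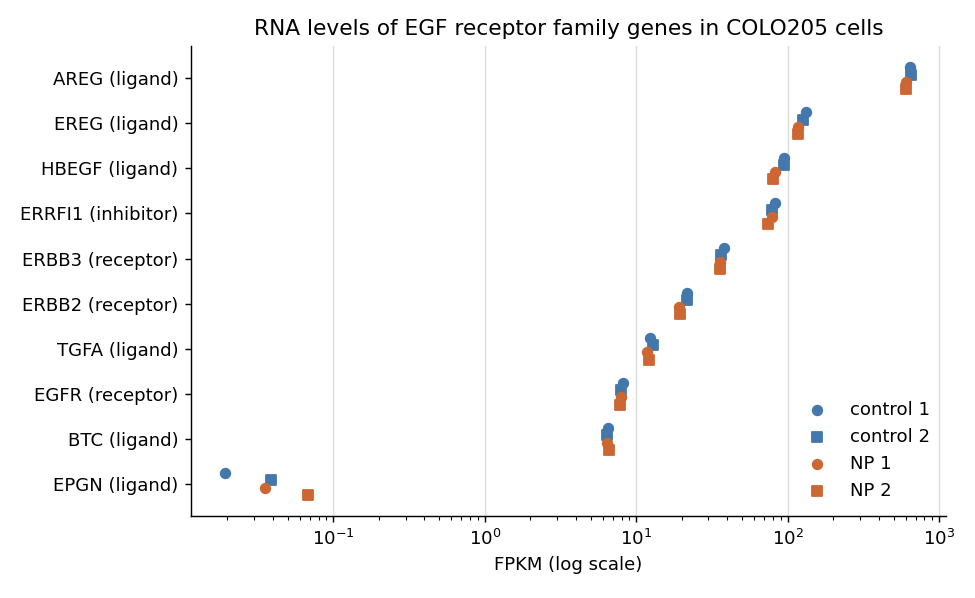
FPKM (log axis) of the 10 EGF receptor family genes, ordered by their mean in the control samples. Each point is 1 sample (blue: control, orange: NP; circles: replicate 1, squares: replicate 2), and the genes keep the same order in both groups, from AREG at 607 to 657 FPKM down to EPGN at 0.019 to 0.068 FPKM.

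By FPKM, AREG dominated the transcripts of the ligand genes. The size of this lead depends on the gene lengths in the deposited table, 1642 bases for AREG and 5713 for EREG. Without length scaling, the control means were closer, at 1060 CPM for AREG and 738 CPM for EREG. Ligand protein was not measured in these samples. Of the summed FPKM of the 6 ligand genes, AREG made up 72.6 ± 0.79% in control cells and 73.7 ± 0.075% in cells given NP (SD, n = 2 each). EREG made up 14.5 ± 0.69% and 14.2 ± 0.099%, and HBEGF 10.7 ± 0.12% and 9.85 ± 0.21%. The share of HBEGF was 10.8% and 10.6% in control samples 1 and 2 and 10.0% and 9.7% in NP samples 1 and 2, so that the groups did not overlap. The shares of AREG and BTC did not overlap between the groups either and were higher with NP, while those of EREG, TGFA and EPGN overlapped. The sum itself was 891 ± 8.73 FPKM in control and 824 ± 1.04 FPKM in NP samples. Among the receptors, ERBB3 made up 55.5 ± 0.80% of the summed FPKM in control and 56.8 ± 0.26% in NP samples, ERBB2 32.4 ± 0.86% and 30.6 ± 0.38%, and EGFR 12.1 ± 0.064% and 12.6 ± 0.12%. The groups did not overlap for any receptor share, which was lower with NP for ERBB2 and higher for ERBB3 and EGFR. Shares of 1 sum depend on each other. By CPM, 21.7% of all genes tested had both NP samples below both control samples and 22.5% had them above. The shares of the family are descriptions without a test.

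AREG, EREG, EPGN and BTC lie together on chromosome 4, within 486 kb (GRCh38, from 74308470 to 74794523 in the deposited table). Their control levels nevertheless ran from 647 ± 13.4 FPKM for AREG to 0.029 FPKM for EPGN. The neighbours EPGN, EREG and AREG lie on the plus strand and BTC on the minus strand.

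HBEGF encodes a heparin-binding ligand of EGFR and ERBB4, which is also known as the receptor of diphtheria toxin, and is found at 140332843 to 140346603 on chromosome 5 (minus strand). It had 4462 and 4444 counts in control samples 1 and 2, and 4193 and 3201 in NP samples 1 and 2. On the FPKM scale these were 95.3, 95.2, 82.5 and 79.9 in the same order. The control samples were almost equal, and both NP samples lay below them. The log2 fold change was -0.22 (standard error 0.035, 95% interval -0.29 to -0.15, adjusted p = 8.4e-06 from the edgeR fit), and HBEGF ranked 14 by p among the 215 genes called lower. It passed in 14 of 15 other settings, at adjusted p from 3.7e-08 to 0.25, and in all 4 fits that left out a sample. The exception was limma on log2(FPKM + 1) of every gene with a count, a setting in which 0 genes passed in either direction.

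EREG encodes a ligand of EGFR and ERBB4 and lies on the plus strand of chromosome 4 from 74365145 to 74388749. It had 11893 and 11247 counts in control samples 1 and 2, and 11282 and 8967 in NP samples 1 and 2. Its FPKM values were 132.9 and 126.1 in control and 116.2 and 117.1 in NP samples. The groups did not overlap, and control sample 1 was the highest. The log2 fold change was -0.14 (standard error 0.029, 95% interval -0.20 to -0.087, adjusted p = 0.00057 from edgeR). Without control replicate 1 it was -0.11 and no longer passed (adjusted p = 0.089 from edgeR), while it passed without any 1 of the other samples. Over the 15 other settings the adjusted p ran from 7.5e-05 to 0.29, and EREG passed in 11.

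AREG encodes a ligand that binds EGFR with lower affinity than EGF does, and lies on the plus strand of chromosome 4 from 74445136 to 74455005. Its counts were 16399 and 16842 in control samples 1 and 2, and 16960 and 13367 in NP samples 1 and 2. As given above in FPKM, the NP samples were almost equal and both lay below the control samples. The log2 fold change was -0.085 (standard error 0.027, 95% interval -0.14 to -0.032, adjusted p = 0.054 from edgeR). The fold change was negative in all 15 other settings, 5 of which passed, with adjusted p from 1.0e-05 to 0.37. It was -0.11 without control replicate 1 (adjusted p = 0.047 from edgeR), and it did not pass in the fits without each of the other samples.

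The other ligands did not pass. TGFA, a ligand of EGFR that many carcinomas make, had 956 and 991 counts without NP and 991 and 795 with it. The FPKM values were 12.4 and 12.9 in control and 11.9 and 12.1 in NP samples, which did not overlap. Its log2 fold change was -0.076 (95% interval -0.20 to 0.049, adjusted p = 0.63 from edgeR). BTC had 271 and 265 counts without NP and 290 and 235 with it, and the FPKM values of the groups, 6.52 and 6.4 against 6.43 and 6.61, overlapped. Its log2 fold change was 0.019 (adjusted p = 0.97 from edgeR) with a 95% interval from -0.20 to 0.24, the widest of the 9 genes tested. EPGN had 1 and 2 counts without NP and 2 and 3 with it. The ratio of NP to control was 1.71 with an exact 95% interval from 0.33 to 11, which covers counting error only.

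**Figure D2:**
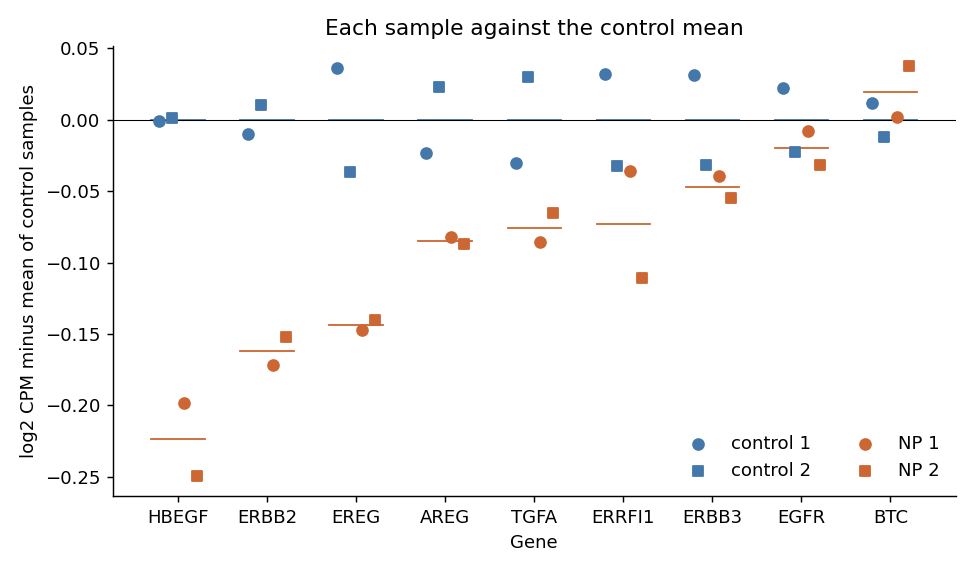
Difference of each sample from the mean of the control samples on the log2 scale of TMM-scaled CPM (counts scaled by library size), for the 9 genes tested (blue: control, orange: NP; circles: replicate 1, squares: replicate 2; short lines: group means). Both NP samples lie below both control samples for 7 genes, and overlap with them for EGFR and BTC.

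ERBB2 was the receptor gene that fell. It lies on the plus strand of chromosome 17 from 39687914 to 39730426. It had 3476 and 3506 counts in control samples 1 and 2, and 3349 and 2685 in NP samples 1 and 2, or 21.5, 21.8, 19.1 and 19.4 FPKM in the same order. The groups were separated by far more than the samples within each differed. The log2 fold change was -0.16 (standard error 0.037, 95% interval -0.24 to -0.087, adjusted p = 0.0036 from edgeR). Without NP replicate 1 it was -0.15 and did not pass (adjusted p = 0.085 from edgeR), and it passed in 11 of 15 other settings, at adjusted p from 0.00077 to 0.28. The exons of ERBB2 share 5.53% of their bases with MIEN1 and 1.88% with PGAP3, both on the opposite strand (GENCODE release 29). The sources do not say whether reads were counted by strand, so reads of these overlaps cannot be told apart. MIEN1, a gene often amplified together with ERBB2, was at 0.25 on the log2 scale (adjusted p = 0.18 from edgeR), and PGAP3, an enzyme of lipid anchor remodelling, at 0.079 (adjusted p = 0.56). Neither of these genes passed, so the direction of their change is not settled, and the effect of the overlaps on ERBB2 was not tested.

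The other receptors did not pass. ERBB3, on chromosome 12, had 5254 and 5000 counts without NP and 5388 and 4217 with it, which were 38, 36.2, 35.9 and 35.6 FPKM. The NP samples lay just below the lower control sample, and the log2 fold change was -0.047 (95% interval -0.11 to 0.020, adjusted p = 0.56 from edgeR). EGFR, on chromosome 7, had 1611 and 1553 counts without NP and 1700 and 1322 with it. Its FPKM values, 8.21 and 7.94 in control and 7.98 and 7.88 in NP samples, overlapped. The log2 fold change was -0.019 (95% interval -0.12 to 0.078, adjusted p = 0.91 from edgeR), and it was 0.015 with offsets for gene length and 0.0022 without control replicate 1. Whether ERBB2 changed differently from EGFR or ERBB3 was not tested.

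ERRFI1, whose transcript is known to be induced by EGFR signalling itself, is found at 8004404 to 8026309 on chromosome 1 (minus strand). It had 5415 and 5150 counts without NP and 5567 and 4179 with it. These were 82.7 and 78.9 FPKM in control samples 1 and 2 and 78.4 and 74.6 FPKM in NP samples 1 and 2. NP sample 1 lay just below control sample 2. The log2 fold change was -0.072 (standard error 0.034, adjusted p = 0.30 from edgeR), with a 95% interval from -0.14 to -0.0033 that is not adjusted for the number of genes. It passed in 0 of 15 other settings.

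**Figure D3:**
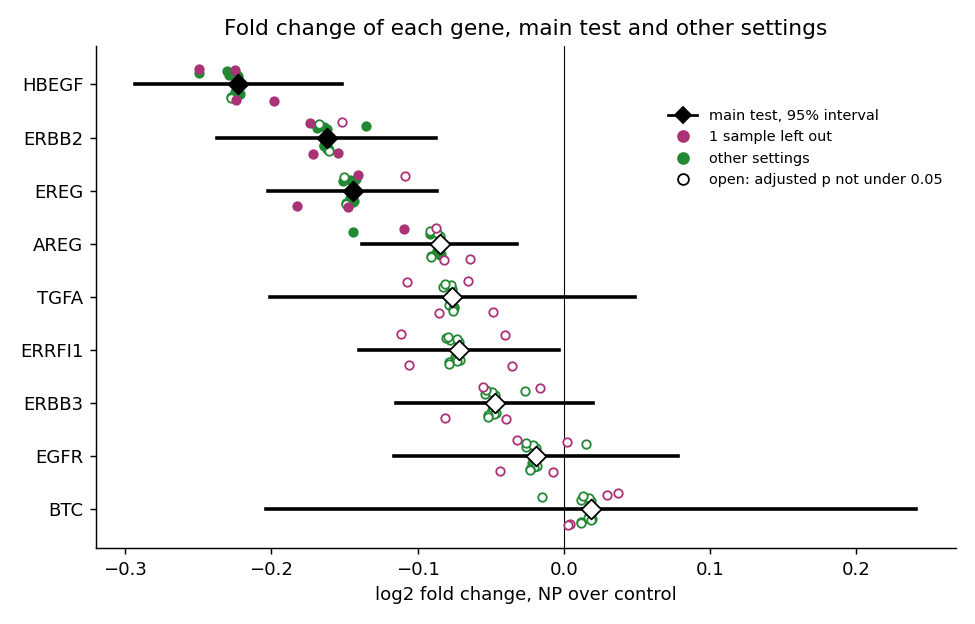
Log2 fold change of NP over control for the 9 genes tested. Diamonds and bars give edgeR's quasi-likelihood test and its 95% interval, purple points the fits without 1 sample, green points the other settings, and filled symbols an adjusted p under 0.05. HBEGF, ERBB2 and EREG are the filled diamonds, at -0.22, -0.16 and -0.14.

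As a group, 8 of the 9 genes tested had a negative log2 fold change, against 6245 of all 12616 genes tested. The median of the 9 family genes was -0.076, against 0.0016 over all genes tested. Both NP samples lay below both control samples for 7 genes, above them for 0 and overlapped with them for 2, while 21.7% of all genes tested had both NP samples below both control samples and 22.5% had them above. At an unadjusted p under 0.05 in edgeR, AREG and ERRFI1 were lower in addition to the 3 genes called, and 0 were higher. Of all genes tested, 6.97% were lower and 8.17% higher at that unadjusted threshold. DESeq2 called the same 3 genes, HBEGF, EREG and ERBB2, lower and 0 higher.

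**Figure D4:**
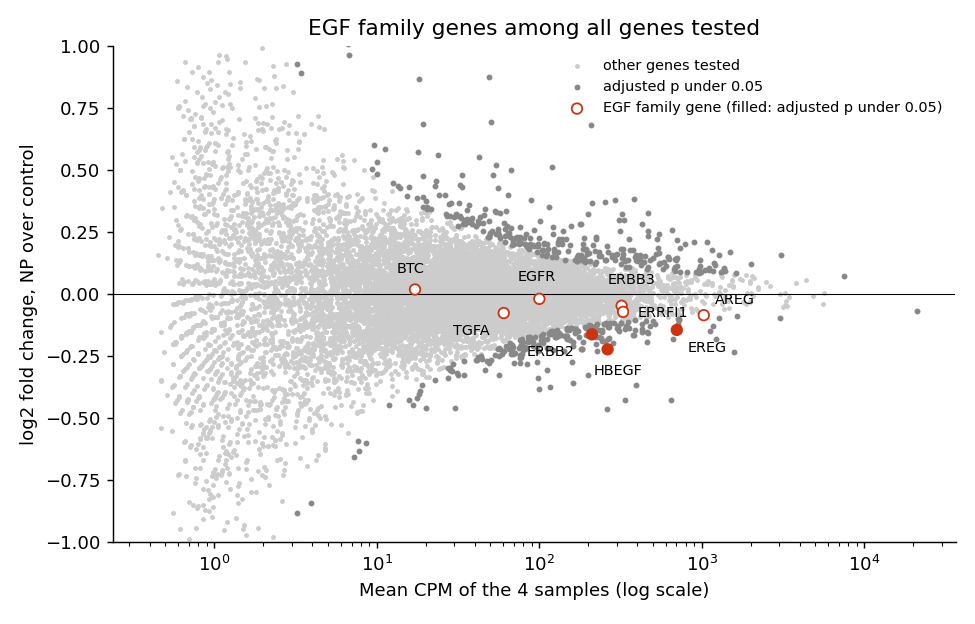
Log2 fold change of NP over control against the mean CPM of the 4 samples (log axis) for the 12616 genes tested. Light grey points are genes that did not pass, dark grey points genes at an adjusted p under 0.05, and red circles the EGF family genes (filled where they passed). A further 67 genes lie outside the axis, which ends at 1 and -1, and HBEGF, EREG and ERBB2 lie at the lower edge of the cloud at their level.

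Fold changes followed gene length across the transcriptome. With the genes ordered by their length in the deposited table and split into 5 classes of nearly equal size, the median log2 fold change was 0.043 in the class of the shortest genes (207 to 2933 bases) and -0.032 in that of the longest (8417 to 118976 bases). Control sample 1 departed most from the others in these classes, with centred medians of -0.036 in the shortest and 0.027 in the longest class. AREG and BTC belong to the shortest class, where 0.713% of genes were called lower, and EGFR, ERBB2 and ERBB3 to the longest, where 3.61% were. HBEGF and ERRFI1 are in the class next to the shortest and EREG and TGFA in the middle one. With offsets that remove this trend in each sample, HBEGF, EREG and ERBB2 still passed, at -0.25, -0.14 and -0.13 on the log2 scale (edgeR, adjusted p = 3.7e-08, 0.00010 and 0.017). AREG moved to -0.14 and passed (edgeR, adjusted p = 1.0e-05), while BTC moved to -0.015 and ERBB3 to -0.026, neither of which passed.

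The 3 genes whose values over the 4 samples were most like those of HBEGF were SIPA1L3, NFYA and BPTF, by the distance between log2 CPM values centred on each gene's own mean. Their distances were 0.012, 0.020 and 0.020, among 10011 other genes that averaged at least 100 counts. NFYA is a subunit of a transcription factor that binds CCAAT boxes, BPTF a subunit of a chromatin remodeller and SIPA1L3 a protein of the cell cortex. Their log2 fold changes were -0.23, -0.22 and -0.22 in that order. Over 4 samples such a likeness describes a common pattern of values only.

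Genes around the family showed few calls. The 5 further family genes examined were EGF, ERBB4, NRG2, NRG3 and NRG4, and the neuregulin gene NRG1 was not among them. EGF itself had 12 and 5 counts without NP and 15 and 12 with it, and NRG4, a neuregulin, 18 and 32 against 22 and 18. Neither passed (adjusted p = 0.61 and 0.82 from edgeR). The receptor gene ERBB4 and the neuregulin gene NRG3 had 0 counts in every sample, and NRG2 had 2 counts in NP sample 1 alone. A count of 0 does not show that a transcript is absent.

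None of 6 genes of ligand shedding passed in edgeR, 2 were lower and 0 higher at an unadjusted p under 0.05, and DESeq2 called 0. Over all genes tested, edgeR called 1.7% lower and 2.35% higher, and at the unadjusted threshold 6.97% were lower and 8.17% higher. RHBDF2, an inactive rhomboid that carries the protease ADAM17 to the cell surface, was at -0.14 on the log2 scale (adjusted p = 0.14 from edgeR). FRMD8, which stabilises that complex, was at -0.16 (adjusted p = 0.24). The proteases themselves were at -0.037 for ADAM17 and 0.013 for ADAM10, with 95% intervals from -0.16 to 0.088 and from -0.069 to 0.095. The list median was -0.053.

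Of 13 genes of receptor down-regulation, 1 fell, 12 did not pass and 0 rose, against 1.7% of all genes tested that fell and 2.35% that rose. HGS, which sorts ubiquitin-tagged receptors to lysosomes, had 1952 and 1956 counts without NP and 1867 and 1539 with it. Its log2 fold change was -0.15 (adjusted p = 0.045 from edgeR). It is among the calls lost with DESeq2, with limma, with no filter on low counts, with offsets for gene length and without any 1 of the 4 samples, since 0 genes of the list passed there. CBL, the ubiquitin ligase that tags active EGFR, was at -0.24 on the log2 scale (adjusted p = 0.051 from edgeR), and STAM, the partner of HGS, at 0.14 (adjusted p = 0.60). The list median was -0.022.

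Of 13 genes of adaptors and effectors at the receptor, 12 were tested. None passed in edgeR, none was at an unadjusted p under 0.05 and DESeq2 called 0. The edgeR shares over all genes tested are those given for ligand shedding. The genes with the smallest p were the adaptor GRB2 with a log2 fold change of 0.049, the kinase subunit PIK3CB with 0.068 and the kinase SRC with -0.047 (adjusted p = 0.60, 0.60 and 0.61 from edgeR). The list median was -0.013.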

How the data were processed

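RNA of COLO205 cells was sequenced in 2 control and 2 NP samples. The authors deposited raw counts, whole reads for each gene. HISAT2, HTSeq and the build GRCh38 stand in the submitters' processing notes, while the sources used here do not give versions, annotation release or strand setting. Recomputing FPKM from the counts, gene lengths and count totals gave the authors' deposited FPKM values to within 5.1e-13%. For its comparison the study used DESeq, with a cutoff on the size of the fold change as well as on the p-value. No limit on fold change was set here. The largest change among the family genes tested, a log2 fold change of -0.22 for HBEGF, does not reach the study's cutoff.

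All 4 samples were used, grouped by their titles. Low counts were removed with filterByExpr (edgeR 4.0.16 in R 4.3.3, minimum count 10), and the rest was scaled with TMM (factors 0.996 to 1.004) and tested with edgeR's quasi-likelihood test without covariates. Benjamini-Hochberg adjustment covered the 12616 genes tested, and calls were made at an adjusted p under 0.05. Standard errors are the size of the log2 fold change over the square root of F. The same-numbered samples were treated as unpaired. The steps were tested on simulated counts. The alternatives were DESeq2 1.42.0, edgeR's exact test, RLE factors, library size only, 2 other filters, each sample left out, the replicate block, offsets for gene length, and limma 3.58.1 on log2(FPKM + 1) and log2(FPKM + 0.1). The text names every member, the 3 (or fewer) lowest-p genes in each further list (ADAM17, ADAM10, ERBB4, NRG2 and NRG3 were added for their role or for their counts, and MIEN1 and PGAP3 for their overlap), and the 3 genes most like HBEGF. The members and lists were chosen with earlier results of these data known.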

Additional observations from a re-analysis of the deposited data

How the results depend on the processing

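Under 15 other settings the family genes called lower were 3 with DESeq2, the exact test and both count filters (HBEGF, EREG and ERBB2) and 4, with AREG added, with RLE factors, library size only, offsets for gene length and the replicate block. Without 1 sample they numbered 2 to 3: AREG, ERBB2 and HBEGF without control replicate 1, EREG and HBEGF without NP replicate 1, and the same 3 as in the main test without control replicate 2 or NP replicate 2. With limma on log2(FPKM + 1) or log2(FPKM + 0.1), 1 member was called in each (HBEGF), and with log2(FPKM + 1) and no filter, 0. No setting called a member higher. Of 135 member fold changes under another setting, 118 kept their direction and call and 3 changed sign, all of members that did not pass: EGFR was at 0.015 and BTC at -0.015 with offsets for gene length, and EGFR at 0.0022 without control replicate 1, in a range over the fits without 1 sample from -0.044 to 0.0022.

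Over all genes, 297 were higher and 215 lower, against 114 and 76 with DESeq2, 45 and 16 with limma on log2(FPKM + 1), 53 and 18 on log2(FPKM + 0.1), and 0 and 0 without a filter. Leaving out 1 sample gave 104 to 237 higher and 67 to 150 lower genes. These fits leave 1 group with a single sample, which is assumed to vary like the other group. With the replicate block, 372 genes were higher and 279 lower. The deviations of same-numbered samples had a correlation of -0.022 across 10012 genes, which is a summary over genes and not a test of a shared batch. What the numbers stand for is not stated. The block changed no member call but that of AREG (adjusted p = 0.048 from edgeR). The counts of the further lists were within 1.5 times in 106 of 120 cases. Nearly all of these were 0 in both settings, so that this agreement says little about stability. The cases that moved all concern receptor down-regulation, the only list with a call in the main test. It had 1 gene lower there and 0 to 2 in the other settings. Depth limits EPGN with 1 to 3 counts per sample and BTC, whose interval is wide.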
